A study of Mus musculus with 4 samples.

Results

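The metabotropic glutamate receptors GRM2, GRM3, GRM4, GRM5, GRM6, GRM7 and GRM8 were examined in the anterior and posterior lobes of the neonatal mouse cerebellum. Every probe of the array whose target symbol was 1 of these 7 gene symbols was taken, which gave 14 of the 45281 probes and 7 of the 30854 target symbols. Metabotropic glutamate receptors are class C G protein-coupled receptors that bind glutamate through a large extracellular domain and signal more slowly than the glutamate-gated channels. Group I receptors act through Gq and phospholipase C, mostly on the postsynaptic side, whereas group II and group III receptors act through Gi/o, lower cyclic AMP and reduce transmitter release. In the cerebellum they tune the synapses that granule cell axons make on Purkinje cells and the inhibitory circuit of Golgi cells.

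Total RNA came from the anterior and posterior lobes of untreated Swiss mice at postnatal day 7 (PN7). Each lobe was represented by 2 arrays, called replicate 1 and replicate 2, and the 4 arrays were Illumina mouse whole-genome bead arrays. The labels give no genotype beyond the strain and do not state whether the replicates came from separate animals or from pools, so every p-value below measures only the spread between these samples. A probe's intensity is the mean fluorescence of its beads in arbitrary units, and its detection p compares that intensity with the array's negative control beads.

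The 4 arrays had similar depth. The median intensity over all probes was 129.6 and 110.2 on anterior replicates 1 and 2, and 121.8 and 123.7 on posterior replicates 1 and 2. The number of probes detected at a detection p under 0.05 was 21460 and 21574 on the anterior arrays, and 21070 and 21288 on the posterior arrays. A probe was read from a median of 40, 42, 40 and 42 beads on these arrays in the same order. The lowest intensity that counted as detected was 139.8 and 116.9 on the anterior arrays and 134.2 and 134.4 on the posterior arrays. Cerebellar markers were bright in both lobes, as with the Purkinje cell gene PCP2 at 18402.3 and 15585.3 in anterior and 15273.3 and 16659.9 in posterior lobes. Probes for other markers of the same tissue were not detected on any array, among them the Purkinje cell genes CALB1, CAR8 and PCP4, the Golgi cell genes SLC6A5 and GAD2 and the granule progenitor gene ATOH1, so a silent probe on this array was not read as absence of the transcript.

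Of the 14 receptor probes, 6 were detected on at least 2 arrays and were tested, which is 42.9% against 48% of all probes on the array. All 6 were in fact detected on all 4 arrays, and they belonged to GRM5, GRM7 and GRM8. The other 8 probes were not above background on any of the 4 arrays, with intensities from 56.9 to 114.4 and detection p from 0.0876 to 0.937. GRM2, GRM3, GRM4 and GRM6 therefore had no tested probe, and no fold change is given for them. GRM5, GRM7 and GRM8 each had 1 undetected probe beside the detected ones. Such a mixture was common on this array: of 6631 genes with 2 or more probes and at least 1 tested, 3789 (57.1%) also had an untested probe. GRM3, GRM4 and GRM6 rested on 1 probe each, and among all 21888 genes with 1 probe that probe was tested in 8984 (41%).

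**Figure D1:**
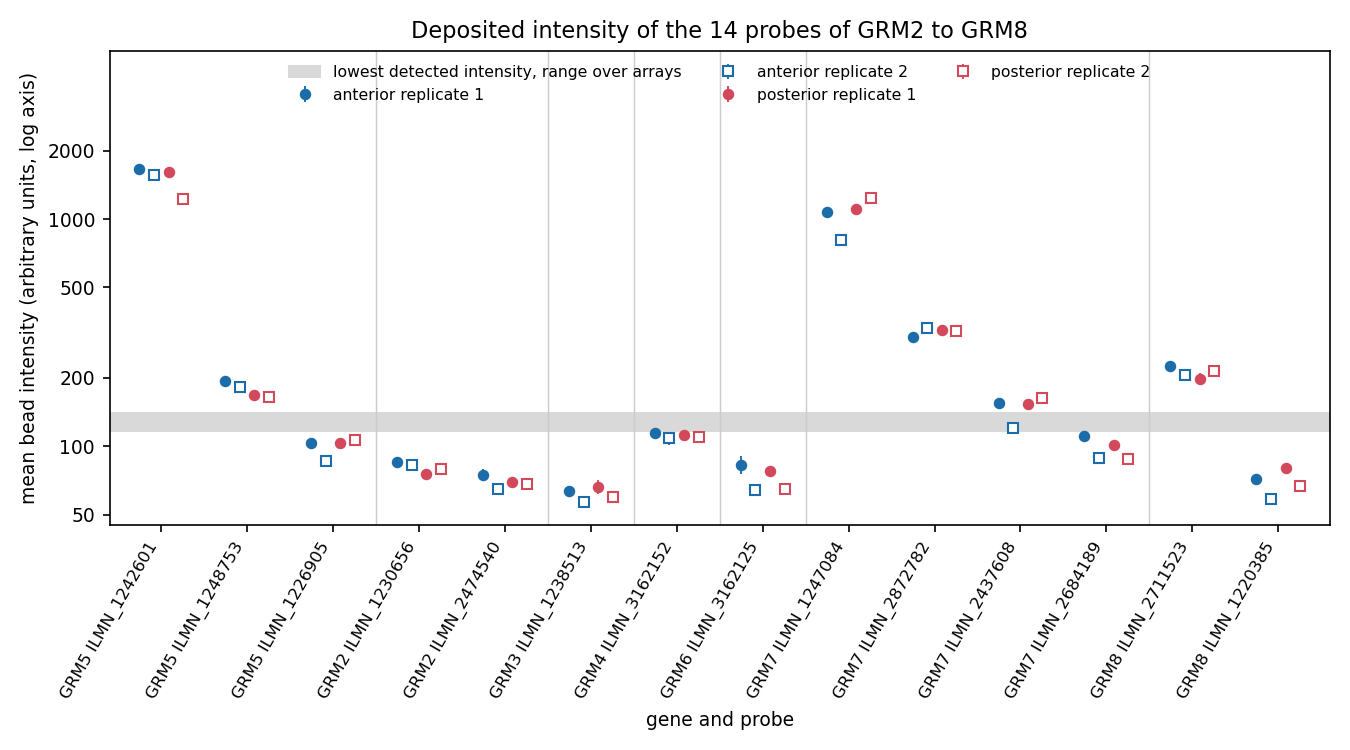
Intensity of each of the 14 receptor probes on the 4 arrays (arbitrary units, log axis), with bars for the standard error over beads and a grey band for the lowest detected intensity, 116.9 to 139.8 over the arrays. The probes of GRM2, GRM3, GRM4 and GRM6 lie below the band, and for GRM7 ILMN_1247084 both posterior points lie above both anterior points.

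In the comparison of posterior with anterior lobes, 1 receptor probe met the criterion used here, a difference of more than 1.2-fold and an unadjusted limma p under 0.05. The study's methods name the same thresholds with an ordinary t statistic and do not state whether its p was adjusted. The probe that met the criterion was a probe of GRM7, which was higher in the posterior lobes by 0.35 on the log2 scale (SE 0.12, 2 arrays per lobe). The probes of GRM5 and GRM8 were lower in the posterior lobes by amounts that did not meet the criterion. The share of 1 in 6 compares with 8.29% of all 21726 tested probes. None of the 6 passed a Benjamini-Hochberg adjusted p of 0.05 by limma (0 of 6, against 0.106% of all tested probes), 1 had an unadjusted p under 0.05 by limma, and 0 did so by the ordinary t statistic named in the study's methods. Between the lobes, 3 of the 6 probes did not overlap, against 42.6% of all tested probes. In direction 3 were higher and 3 lower in the posterior lobes, and the median difference was -0.0092 on the log2 scale against 0.0023 over all tested probes.

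GRM5, the group I receptor in the set, couples to Gq and is found on Golgi cells and in the immature cerebellum. Its probe ILMN_1242601 read 1665.6 and 1569.7 in the anterior lobes and 1613.6 and 1220.9 in the posterior lobes. Posterior replicate 2 was the low array and the lobes overlapped, since posterior replicate 1 lay between the anterior arrays. The standard error over beads was 46.4, 33.7, 62.6 and 35.5 in the same order, so the gap between the posterior arrays exceeded the reading error of either. After normalisation the log2 intensity was 10.65 ± 0.085 (SD, n = 2) in anterior and 10.47 ± 0.32 (SD, n = 2) in posterior lobes. The difference was -0.19 on the log2 scale with a 95% confidence interval from -0.58 to 0.21 (adjusted p = 0.728, limma). With posterior replicate 2 left out it was 0.042. With posterior replicate 1 left out it was -0.41 and met the criterion, at an adjusted p of 0.999 by limma (0.35 to 1 over all alternatives).

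A further GRM5 probe, ILMN_1248753, read 192.9 and 182.9 in the anterior lobes and 167.5 and 165.1 in the posterior lobes. Both posterior arrays were below both anterior arrays. The fold change was 0.876, with a 95% confidence interval from 0.723 to 1.06 (adjusted p = 0.606, limma). On the log2 scale this difference of -0.19 was -0.10 without anterior replicate 2 and -0.30 with neqc background correction. Both GRM5 probes thus had a lower posterior mean, and neither difference was resolved with 2 arrays per lobe. The remaining GRM5 probe, ILMN_1226905, read 103.2 and 86.4 in anterior and 103.8 and 106.5 in posterior lobes. None of these values was above background, with detection p from 0.165 to 0.221.

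The group II receptors GRM2 and GRM3 couple to Gi/o, and in the cerebellum GRM2 is best known from Golgi cells and GRM3 from glia as well as neurons. The GRM2 probe ILMN_1230656 read 85.7 and 82.9 in anterior and 75.2 and 79.1 in posterior lobes, with detection p from 0.245 to 0.418. The other GRM2 probe, ILMN_2474540, read 75 and 65.1 in anterior and 69.5 and 68.3 in posterior lobes, with detection p from 0.501 to 0.636. GRM2 was therefore not detected by either probe in either lobe. The GRM3 probe ILMN_1238513 read 63.5 and 56.9 in anterior and 66.4 and 59.9 in posterior lobes. With detection p from 0.726 to 0.937, the 4 GRM3 readings sat within the range of the negative control beads.

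Of the group III receptors, GRM4 is the receptor of parallel fibre terminals, where it lowers glutamate release onto Purkinje cells. Its only probe, ILMN_3162152, read 114.4 and 108.5 in anterior and 111.8 and 109.5 in posterior lobes. The detection p was 0.135 and 0.0876 on the anterior arrays and 0.123 and 0.162 on the posterior arrays, and no array reached the detection threshold. Among the 8 undetected receptor probes these readings came nearest to it. GRM6 is the receptor of retinal ON bipolar cells, where it holds the channel TRPM1 closed in the dark. The GRM6 probe ILMN_3162125 read 82.8 and 64.5 in anterior and 77.7 and 64.6 in posterior lobes, none above background. Of its retinal partners, TRPM1 and GPR179 (5330439C02RIK on the array) were also not detected on any array. The partner NYX, a leucine-rich repeat protein, was detected at 235.2 and 229.1 in anterior and 287.3 and 294.4 in posterior lobes. NYX was higher on both posterior arrays by 0.33 on the log2 scale (SE 0.13, adjusted p = 0.464, limma). It met the criterion of fold and unadjusted p but did not pass the adjusted p.

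GRM7 is a presynaptic group III receptor of the active zone with low affinity for glutamate. Its probe ILMN_1247084 read 1078.5 and 805.3 in the anterior lobes and 1109 and 1236.4 in the posterior lobes. Both posterior arrays were above both anterior arrays, and anterior replicate 2 was the low array. The standard error over beads was 30.1, 39.9, 34.7 and 54.1 in the same order. In raw intensity, posterior replicate 1 exceeded anterior replicate 1 by about the size of these errors. After normalisation the values were 9.96 and 9.74 on the log2 scale in anterior and 10.16 and 10.26 in posterior lobes, so the arrays of a lobe differed by 0.22 in anterior and 0.097 in posterior lobes. The means were 9.85 ± 0.16 (SD, n = 2) and 10.21 ± 0.069 (SD, n = 2). The difference of 0.35 corresponds to a fold change of 1.28, with a 95% confidence interval from 1.04 to 1.56. Its adjusted p was 0.421 by limma, the smallest among the 6 tested receptor probes.

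The call for this GRM7 probe depended on single arrays and on the processing. Without anterior replicate 1 the difference was 0.46 with an adjusted p of 0.0222, the only alternative that passed the adjusted threshold (0.0222 to 0.999 over all alternatives), and 2538 of all 21201 tested probes passed it in that setting. It was 0.24 without anterior replicate 2, 0.40 with posterior replicate 1 left out and 0.30 with posterior replicate 2 left out, and in these 3 cases the unadjusted p no longer fell under 0.05. The call was also lost without normalisation (0.33) and with the ordinary t statistic. The direction was higher in the posterior lobes in all 14 alternatives tried. An exact permutation test of 2 against 2 arrays cannot give a two-sided p below 0.333, so no such test is reported. In whole lobes, more cells that express GRM7 and more GRM7 RNA per cell cannot be told apart.

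The other GRM7 probes did not meet the criterion. ILMN_2872782 read 301.9 and 330.6 in anterior and 323.9 and 322.6 in posterior lobes. Both posterior arrays lay between the anterior arrays, and the difference was 0.048 with a 95% confidence interval from -0.35 to 0.44 (adjusted p = 0.942, limma). Without anterior replicate 1 this difference was -0.15, and without anterior replicate 2 it was 0.24. ILMN_2437608 read 154.7 and 121 in anterior and 153.5 and 163.4 in posterior lobes, close to the detection threshold. Its raw intensities overlapped between the lobes, whereas after normalisation both posterior arrays were above both anterior arrays, with a difference of 0.18 (95% confidence interval -0.064 to 0.43, adjusted p = 0.591, limma) that was 0.31 with neqc background correction. ILMN_2684189 read 110.7 and 89 in anterior and 101.1 and 88.2 in posterior lobes, which was not above background. All 3 detected GRM7 probes had a higher posterior mean, and this held under each normalisation tried, while ILMN_2872782 turned without anterior replicate 1.

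GRM8, a presynaptic group III receptor with high affinity for glutamate, was detected by its probe ILMN_2711523 at 226.6 and 205 in anterior and 198.7 and 214.8 in posterior lobes. Posterior replicate 2 lay between the anterior arrays and the groups overlapped. The fold change was 0.955, with a 95% confidence interval from 0.789 to 1.16 (adjusted p = 0.874, limma). The other GRM8 probe, ILMN_1220385, read 71.8 and 58.7 in anterior and 80.1 and 66.7 in posterior lobes and was not above background. The GRM8 difference of -0.067 on the log2 scale was -0.014 without anterior replicate 2, -0.017 with posterior replicate 1 left out and -0.12 when anterior replicate 1 or posterior replicate 2 was left out, and it was -0.028 with a common 75th percentile.

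**Figure D2:**
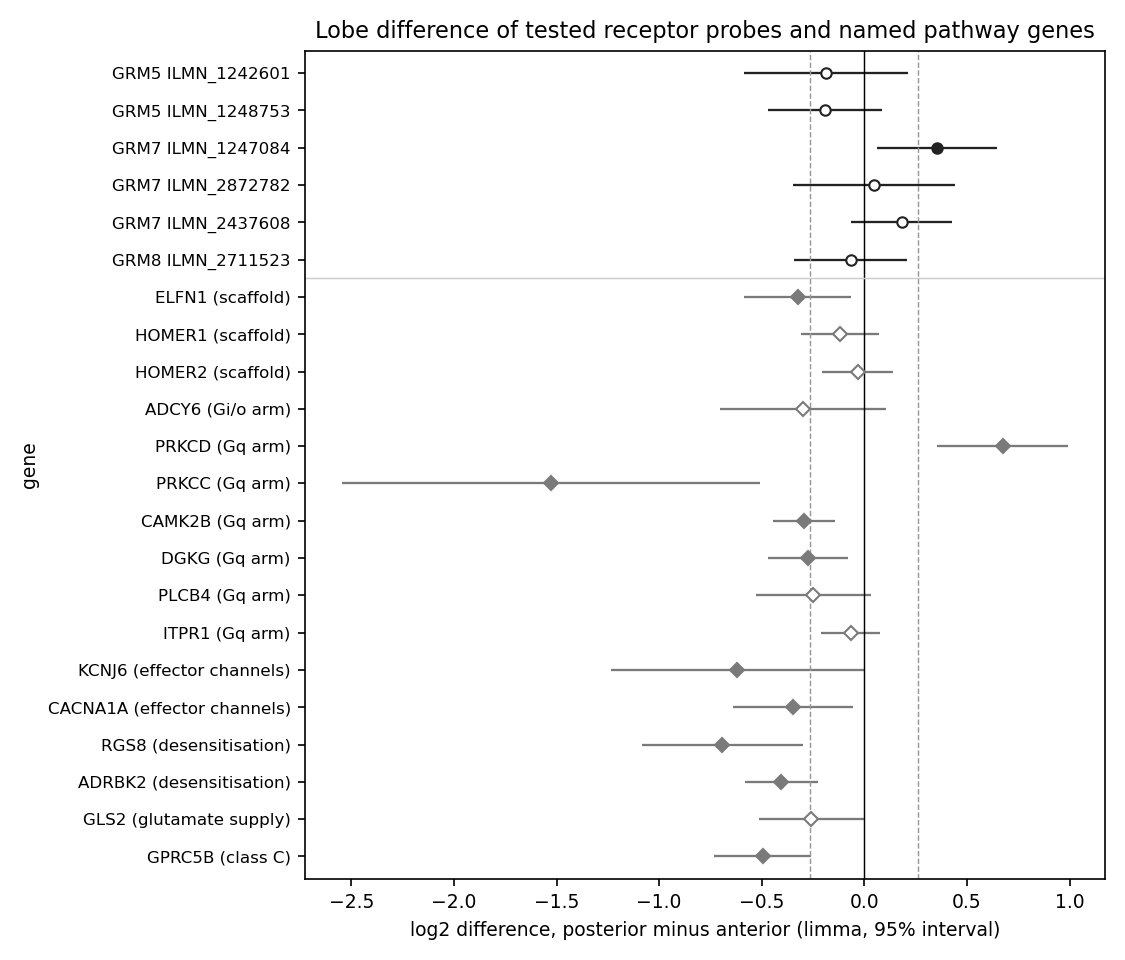
Posterior minus anterior log2 difference with 95% confidence intervals from limma (2 arrays per lobe). Circles are the 6 tested receptor probes, and diamonds are the genes named below from the lists of genes that act with the receptors. Filled symbols met the criterion. The interval of GRM7 ILMN_1247084 lies above 0 (0.062 to 0.65), and the intervals of the other 5 receptor probes include 0. Among the diamonds, some intervals include 0 and others do not.

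The probes whose pattern over the 4 arrays lay nearest to GRM7 ILMN_1247084 were found by the Euclidean distance between log2 values, each centred on its own mean, among 21723 other tested probes. The nearest was FLNC at 0.0208, followed by 5330438O12RIK at 0.0253, LRRIQ2 at 0.0254, ANXA2 at 0.0267 and DACH1 at 0.0275. The GRM7 values themselves spanned 0.513 over the arrays. FLNC, a filamin that crosslinks actin, was at 8.82 and 8.59 in anterior and 9.01 and 9.09 in posterior lobes on the log2 scale. With 4 arrays many patterns lie close to one another, and these distances are a description only.

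Genes that act with the receptors were grouped in 7 lists, with 1 probe per gene. Of 144 genes, 140 were on the array and 117 were tested. By the same criterion 1 was higher and 9 were lower in the posterior lobes, while 107 did not pass. Taken in either direction, 8.55% of the 117 genes met it. Among all 15615 tested genes 3.45% were higher and 4.46% lower. The median difference over the 117 genes was -0.066 on the log2 scale against 0.0079 over all tested genes. None of these 10 genes, each at an unadjusted p under 0.05, passed an adjusted p of 0.05 by limma, whereas all of them but ELFN1 did when anterior replicate 1 was left out, a setting in which 2538 of all 21201 tested probes passed it. PRKCC also did without normalisation (0.0177, with 3.94e-05 to 0.999 over all alternatives), and RGS8 (0.033, with 2.25e-05 to 0.999) and GPRC5B (0.0359, with 0.00831 to 0.988) did when anterior replicate 2 was left out. The count of 9 lower genes was 5 when posterior replicate 1 was left out, 6 when posterior replicate 2 was, 17 when anterior replicate 1 was and 14 when anterior replicate 2 was. The count of 1 higher gene was 6 when either anterior array was left out. The count over all tested probes moved too, from 1802 past the criterion to 766 of 21422, 811 of 21360, 4677 of 21201 and 1942 of 21185 in the same order. After scaling to a common 75th percentile 5 genes were lower and 3 higher, and by the ordinary t statistic 3 were lower and 1 higher.

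Scaffolds and binding partners hold the receptors at the synapse, and 1 of 22 tested genes met the criterion. This was ELFN1, an adhesion protein that recruits GRM7 across the synapse, at 206.3 and 155.7 in anterior and 147.6 and 144.3 in posterior lobes. Both posterior arrays were lower, with a difference of -0.32 on the log2 scale (SE 0.11, adjusted p = 0.414, limma). The call was lost without anterior replicate 1 (-0.25), posterior replicate 1 (-0.36) or posterior replicate 2 (-0.30), and also without normalisation (-0.30), with a common 75th percentile (-0.26) and by the ordinary t statistic. With neqc background correction the ELFN1 difference was -0.54 and kept its call. HOMER1, which ties GRM5 to the postsynaptic density, read 4210.9 and 3678.1 in anterior and 3690.3 and 3558.7 in posterior lobes. The HOMER1 difference was -0.12 (adjusted p = 0.642, limma), and with posterior replicate 2 left out it was -0.061. HOMER2 read 8652.2 and 7678.2 in anterior and 8102 and 7816.7 in posterior lobes. The lobes overlapped for HOMER2, with a difference of -0.032 (adjusted p = 0.906, limma) that was 0.026 without posterior replicate 2.

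On the Gq arm used by GRM5, 1 of 20 tested genes was higher and 3 were lower in the posterior lobes. PRKCC, an older symbol of the gamma protein kinase C of Purkinje cells, read 888.4 and 1814.9 in anterior and 351.4 and 539.6 in posterior lobes. Both posterior arrays were below both anterior arrays, and replicate 2 was the higher array in each lobe. The PRKCC difference was -1.53 on the log2 scale (SE 0.42, adjusted p = 0.338, limma), and without posterior replicate 1 it was -1.23 and no longer met the criterion. It was -0.90 without anterior replicate 2, and the call was also lost by the ordinary t statistic. PRKCD, the delta protein kinase C, read 592.2 and 469.3 in anterior and 880.7 and 777.9 in posterior lobes, a difference of 0.68 (SE 0.13, adjusted p = 0.201, limma). CAMK2B, a subunit of the calcium and calmodulin-dependent kinase, read 14320.6 and 11637.9 in anterior and 10468.4 and 10796.6 in posterior lobes, a difference of -0.29 (adjusted p = 0.236, limma) that lost its call without anterior replicate 1 (-0.25), without normalisation (-0.28) and with a common 75th percentile (-0.25). DGKG, a diacylglycerol kinase, read 3269.5 and 3011.3 in anterior and 2545.3 and 2619.8 in posterior lobes, lower on both posterior arrays. The DGKG difference of -0.28 (adjusted p = 0.363, limma) lost its call without anterior replicate 2 (-0.23), posterior replicate 1 (-0.29) or posterior replicate 2 (-0.26), and also without normalisation (-0.28) or with a common 75th percentile (-0.25).

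Other genes of this arm did not pass. PLCB4, a phospholipase C found in Purkinje cells, read 490 and 418.9 in anterior and 369.5 and 388.2 in posterior lobes. Its posterior values were lower on both arrays, with a difference of -0.25 (adjusted p = 0.54, limma). ITPR1, the calcium release channel opened by inositol trisphosphate, read 30860 and 28961.5 in anterior and 29676.1 and 26719.6 in posterior lobes. The lobes overlapped for ITPR1, with a difference of -0.067 (adjusted p = 0.723, limma). It ranged from -0.12 to -0.013 with posterior replicate 1 or posterior replicate 2 left out, and was -0.041 without anterior replicate 2.

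On the Gi/o arm used by the group II and group III receptors, 0 of 27 tested genes met the criterion, and the median difference was -0.060. The largest difference in that list was in ADCY6, an adenylyl cyclase, at 1026.6 and 1185.7 in anterior and 804.5 and 961.3 in posterior lobes. The difference was -0.30 (SE 0.16, adjusted p = 0.591, limma), while it was -0.094 without anterior replicate 2 and -0.51 without anterior replicate 1, with an adjusted p of 0.022 (0.022 to 0.999 over all alternatives). Among the channels that the Gi/o beta-gamma subunits act on, 2 of 6 tested genes were lower in the posterior lobes. KCNJ6, a subunit of G protein-gated potassium channels, read 740.3 and 1045.4 in anterior and 618.4 and 511.5 in posterior lobes. Anterior replicate 2 was the high array, and the difference of -0.62 (SE 0.25, adjusted p = 0.495, limma) lost its call without it (-0.26) and was -0.98 without anterior replicate 1. The call was also lost without posterior replicate 1 (-0.78) or posterior replicate 2 (-0.46), and with a common 75th percentile (-0.61), with cyclic loess (-0.62), without the intensity trend and by the ordinary t statistic. CACNA1A, the pore of the presynaptic calcium channel of P/Q type, read 866.5 and 861.1 in anterior and 646.6 and 688.1 in posterior lobes. The CACNA1A difference of -0.35 (SE 0.12, adjusted p = 0.432, limma) lost its call without anterior replicate 2 (-0.24), posterior replicate 1 (-0.33) or posterior replicate 2 (-0.37), and by the ordinary t statistic.

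Proteins that end receptor signalling gave 2 lower genes of 20 tested. RGS8, which speeds the shut-off of Gi/o and Gq subunits and is abundant in Purkinje cells, read 7489.1 and 9004.8 in anterior and 4816.9 and 5398.7 in posterior lobes. The RGS8 difference was -0.69 (SE 0.16, adjusted p = 0.278, limma), and without anterior replicate 2 it was -0.44. The RGS8 call was lost by the ordinary t statistic. ADRBK2, the older symbol of a G protein-coupled receptor kinase, read 5973.2 and 5181.2 in anterior and 3959.8 and 4429.7 in posterior lobes. Both posterior arrays were lower for each of these genes, with a difference of -0.40 (SE 0.073, adjusted p = 0.182, limma) for ADRBK2. For glutamate release, uptake and recycling, 0 of 15 tested genes met the criterion. The largest difference there was in GLS2, a glutaminase, at 927.2 and 789.7 in anterior and 695.9 and 708.8 in posterior lobes. It came to -0.26 (SE 0.10, adjusted p = 0.493, limma), just under the fold threshold, and met the criterion without anterior replicate 2 (-0.27) and with neqc background correction (-0.28).

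The other class C receptors, the relatives of the metabotropic glutamate receptors, gave 1 lower gene of 7 tested. GPRC5B, an orphan receptor, read 8217.4 and 6701.5 in anterior and 5579.2 and 4924.3 in posterior lobes. Both posterior arrays were lower, with a difference of -0.50 (SE 0.096, adjusted p = 0.201, limma), and the call was lost by the ordinary t statistic.

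Markers of other cell types also differed between the lobes. All 6 tested oligodendrocyte markers were lower in the posterior lobes by the same criterion, 3 of them past the adjusted p by limma, with a median difference of -1.07. Their summed normalised intensity was 63928 and 63327 in anterior and 42278 and 41114 in posterior lobes, and the most abundant, MBP, differed by -0.45. Of 5 meningeal markers 3 were higher in the posterior lobes, with a median difference of 0.51 and a sum of 14751 and 16755 in anterior and 21893 and 25346 in posterior lobes. The most abundant of them, IGF2, differed by 0.47. Of 3 unipolar brush cell markers 1 met the criterion, CALB2, which was higher by 0.37. EOMES (0.19) and LMX1A (-0.39) overlapped between the lobes and had opposite signs. The list summed to 9998 and 10439 in anterior and 13116 and 12738 in posterior lobes, and CALB2, its most abundant gene, made up most of that sum. The part of these markers in the GRM7 difference and in the lower signalling genes was not tested.

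Each of the other cell type lists held 0 to 2 genes past the criterion. Among all tested genes 3.45% were higher and 4.46% lower by it. For Purkinje cells 0 of 3 tested markers met the criterion, with a median difference of -0.067, which was that of the most abundant, ITPR1. For Golgi and other inhibitory interneurons 0 of 3 did, with a median of -0.028, which was that of the most abundant, SLC32A1. For granule neurons 1 of 6 was lower, ETV1 at -0.64, the median was -0.072 and the most abundant, NEUROD2, differed by -0.044 on the log2 scale. For granule progenitors 0 of 3 and for astrocytes and Bergmann glia 0 of 6 met it, with medians of 0.032 and -0.026. Their most abundant genes, MKI67 and SLC1A3, differed by 0.084 and 0.0044. Of 4 oligodendrocyte precursor markers PDGFRA was higher (0.47) and SOX10 lower (-0.51), and the most abundant, OLIG1, differed by -0.24. No marker of endothelium (0 of 4) or microglia (0 of 4) met it, and their most abundant genes, CLDN5 and CX3CR1, differed by 0.056 and 0.034. Of the 2 tested choroid plexus markers CLIC6 was lower (-0.89). The most abundant, TTR, read 599.9 and 9501.9 in anterior and 325.9 and 3777.6 in posterior lobes. TTR was thus high in replicate 2 of each lobe.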

How the data were processed

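Total RNA of 4 PN7 cerebellar lobe samples (2 anterior, 2 posterior) had been hybridised to Illumina mouse bead arrays. The values deposited by the authors were the mean bead intensity per probe from GenomeStudio 1.9.0, without between-array normalisation in the deposited table. Each probe also came with a detection score deposited by the authors, which is 1 minus the detection p against negative control beads, and with the spread and number of beads, which gave the bead standard errors and the median bead numbers. The other 16 value columns were not used here. Intensities were floored at 1, quantile normalised, a step the study's methods do not name, and put on the log2 scale. Probes with a detection p under 0.05 on at least 2 of 4 arrays were tested. Lobes were compared with limma 3.58.1 in R 4.3.3 (lmFit, eBayes with an intensity trend, two-sided), with Benjamini-Hochberg adjustment over all 21726 tested probes and 95% confidence intervals from the same fit. The scripts were tested on simulated data. The number of arrays limits the precision.

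Receptor genes and lists were chosen with earlier results of these data known. Named were all probes of the 7 receptors; from each signalling list the genes past the criterion, up to 4 per direction, or the gene with the largest difference where none passed; a few landmark genes (HOMER1, HOMER2, PLCB4, ITPR1, KCNJ6, ELFN1); the 5 probes nearest to the receptor probe with the largest difference; and from each cell type list its counts and most abundant gene. Other markers named were chosen after their values were seen. A gene was read by its tested probe with the highest mean signal. List symbols absent from the array were matched through RefSeq synonyms (GRCm38.p6), and HOMER3, CNIH2, CACNA2D2 and GPRC5D found no probe. The array's symbols may be old ones. Alternatives were neqc background correction, no normalisation, a common 75th percentile, cyclic loess, 3 other detection filters, no intensity trend, the ordinary t statistic, a replicate block, a fold threshold of 1.5 and leaving out each array. The counts of signalling genes under these alternatives were added after seeing the data. Probe sequences and coordinates were not used here.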

Additional observations from a re-analysis of the deposited data

How the results depend on the processing

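The receptor count of 1 past the criterion was 0 without normalisation, with the ordinary t statistic and at a fold threshold of 1.5. When an array was left out, GRM7 ILMN_1247084 kept its call only without anterior replicate 1 (0.46). Without posterior replicate 1 the receptor probe past the criterion was instead GRM5 ILMN_1242601, which was lower in the posterior lobes (-0.41). Past the criterion, 1802 of all tested probes became 741 with the ordinary t statistic, 389 at 1.5-fold and 766 (without posterior replicate 1) to 4677 (without anterior replicate 1) on leaving out an array. Past the adjusted p by limma, 23 probes became 123 without normalisation, 73 without a filter on dim probes, 13 without the intensity trend, 0 with the ordinary t statistic (1763 at an unadjusted p under 0.05) and 0 to 2538 on leaving out an array (0 without posterior replicate 1 or 2, where limma gave 785 and 825 at an unadjusted p under 0.05). With the replicate block, which pairs arrays by a shared replicate number that the labels do not tie to an animal, 2818 probes passed the criterion and 588 the adjusted p, 14 signalling genes were lower and 4 higher, PRKCC, RGS8, GPRC5B, PRKCD and ADRBK2 passed the adjusted p, ADCY6 met the criterion, and GRM7 ILMN_1247084 had an adjusted p of 0.179 (0.0222 to 0.999 over its alternatives). On leaving out an array, GRM5 ILMN_1242601 ranged from -0.41 to 0.042, GRM7 ILMN_2872782 from -0.15 to 0.24 and HOMER2 from -0.092 to 0.026. The cause was not tested. GRM7 ILMN_2437608 was not tested at a detection p under 0.01. With an array left out, the lone array of its lobe is assumed to vary like the others. Signal over background limits GRM2, GRM3, GRM4 and GRM6, for which no bound on a difference can be given.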
